A study of Homo sapiens with 8 samples.

Results

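Small RNA host genes and a set of well-known long non-coding RNAs (lncRNAs) were followed in human EndoC-βH5 beta cells exposed to pro-inflammatory cytokines. They were chosen by name from the deposited expression table: every gene named SNHG with a number (small nucleolar RNA host gene), every gene whose name begins with MIR and ends with HG (microRNA host gene), and GAS5, TUG1, TUNAR, MALAT1, NEAT1, NORAD and DANCR. The rule gave 59 of the 16525 genes of the table, namely 21 SNHG genes, 31 MIR host genes and the 7 listed lncRNAs, and used no measured value. The table gives the biotype lncRNA for 57 of them and protein_coding for TUG1 and TUNAR, which were kept because the rule lists them by name. EndoC-βH5 is 1 cell line, made from fetal pancreatic tissue with immortalizing transgenes that were later removed. RNA was compared between 4 control samples, kept without cytokines, and 4 samples exposed to recombinant human IL-1β, IFNγ and TNFα together for 48 h. Both groups were grown in the same medium and the same plate format, with no genetic change between them.

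A small RNA host gene carries the sequence of a smaller RNA inside its own transcript. Small nucleolar RNAs (snoRNAs) lie in introns, are trimmed out of the excised intron and then guide chemical modification of ribosomal and spliceosomal RNA, while the joined exons of many hosts are poorly translated and are degraded by nonsense-mediated decay. MicroRNAs (miRNAs) are cut from the host transcript by Drosha and DGCR8 in the nucleus and by Dicer in the cytoplasm, and pair with messenger RNAs through the seed at their 5′ end. Among the listed lncRNAs, NEAT1 is the scaffold of paraspeckles, MALAT1 is an abundant RNA of nuclear speckles, NORAD is an abundant cytoplasmic RNA, TUG1 and TUNAR have been studied in beta cells, and GAS5 and DANCR hold snoRNAs in their introns. The libraries were made from messenger RNA, so the values below are those of the host transcripts. The snoRNAs and mature miRNAs themselves were not measured.

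A selection of the 27 mature miRNAs inside the MIR host genes that were called changed, with at least 1 from each host, is shown here because these are products that the host transcripts carry. Sequences and positions are from RefSeq on GRCh38.p14, written 5′ to 3′, with the seed (bases 2 to 8) in capitals. The first 8 lie in hosts called higher with cytokines and the other sequences in hosts called lower.
miR-23a-3p (MIR23AHG, chr19:13836595-13836615, minus strand): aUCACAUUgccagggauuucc
miR-27a-3p (MIR23AHG, chr19:13836447-13836467, minus strand): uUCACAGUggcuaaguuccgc
miR-24-3p (MIR23AHG, chr19:13836289-13836310, minus strand): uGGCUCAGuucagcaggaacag
miR-221-3p (MIR222HG, chrX:45746180-45746202, minus strand): aGCUACAUugucugcuggguuuc
miR-222-3p (MIR222HG, chrX:45747036-45747056, minus strand): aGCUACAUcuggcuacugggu
miR-22-3p (MIR22HG, chr17:1713914-1713935, minus strand): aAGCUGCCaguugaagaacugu
miR-7-5p (MIR7-3HG, chr19:4770700-4770723, plus strand): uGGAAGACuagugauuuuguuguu
miR-762 (MIR762HG, chr16:30893951-30893972, plus strand): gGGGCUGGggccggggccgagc
miR-210-3p (MIR210HG, chr11:568112-568133, minus strand): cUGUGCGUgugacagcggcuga
miR-217-5p (MIR217HG, chr2:55983020-55983042, minus strand): uACUGCAUcaggaacugauugga
miR-216a-5p (MIR217HG, chr2:55989020-55989041, minus strand): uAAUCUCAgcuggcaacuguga
miR-1915-3p (MIR1915HG, chr10:21496576-21496595, minus strand): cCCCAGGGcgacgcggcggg
miR-600 (MIR600HG, chr9:123111561-123111583, minus strand): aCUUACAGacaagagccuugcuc
miR-3936 (MIR3936HG, chr5:132365513-132365534, minus strand): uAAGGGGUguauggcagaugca
miR-325 (MIR325HG, chrX:77005464-77005486, minus strand): cCUAGUAGguguccaguaagugu
miR-384 (MIR325HG, chrX:76919285-76919304, minus strand): aUUCCUAGaaauuguucaua
The pair miR-221-3p and miR-222-3p shares 1 seed and 1 host. No seed was shared between a host called higher and a host called lower in this set. The mature miR-7-5p and miR-24-3p are also encoded at other loci, so a change of the host says nothing of their total amount.

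Around the transcription start, snoRNA hosts are known for a C followed by a run of pyrimidines, the start signature of ribosomal protein genes and of other genes whose messages are regulated through growth signalling. The sequences from 20 bases before to 30 bases from the annotated start on are given for the snoRNA hosts called lower with cytokines and for the MIR host genes with the largest rise and fall, with the tract of a C and at least 4 further pyrimidines that begins within 5 bases of the start in capitals (RefSeq, GRCh38.p14, in the direction of the gene).
SNHG19 (chr16:2155329-2155378, minus strand): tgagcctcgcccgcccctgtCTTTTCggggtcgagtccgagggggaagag
SNHG7 (chr9:136728155-136728204, minus strand): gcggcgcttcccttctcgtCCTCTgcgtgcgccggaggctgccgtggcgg
DANCR (chr4:52712374-52712423, plus strand): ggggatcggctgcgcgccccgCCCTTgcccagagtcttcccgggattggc
SNHG8 (chr4:118278742-118278791, plus strand): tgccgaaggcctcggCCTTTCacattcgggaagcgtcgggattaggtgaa
SNHG32 (chr6:31834896-31834945, plus strand): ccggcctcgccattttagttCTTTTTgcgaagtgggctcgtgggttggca
SNHG29 (chr17:16438967-16439016, plus strand): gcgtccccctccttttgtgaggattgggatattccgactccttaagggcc
MIR23AHG (chr19:13842889-13842938, minus strand): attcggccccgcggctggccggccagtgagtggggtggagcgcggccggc
MIR325HG (chrX:77014503-77014552, minus strand): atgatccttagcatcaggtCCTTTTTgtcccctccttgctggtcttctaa
Of the 6 snoRNA hosts shown, SNHG29 was the 1 without such a tract in this window. A tract was present in 11 of 20 snoRNA hosts with a promoter in the table (55.0%), in 13 of 30 MIR host genes (43.3%) and in 17 of 31 protein-coding snoRNA hosts (54.8%), against 21.1% of all 27305 promoters. These matches are a description and were not tested. Positions of host genes given below are those of GENCODE 29 on GRCh38, and those of miRNAs and promoters are from RefSeq.

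The values are the CPM that the authors deposited, the reads on a gene scaled to the read total of its library, with no division by gene length. In every library 100% of the values were whole multiples of 1 read, and reads on listed genes ranged from 36956294 to 40117636 in control and from 36577438 to 39348935 in cytokine libraries, so that a count of 0 allows up to 0.0641 CPM (3 reads, counting error only). By the first part of their column names the libraries form 4 pairs, A to D, of 1 control and 1 cytokine library each. Libraries of 1 pair deviated from their group means together (r across genes of 0.57, 0.59, 0.80 and 0.74 in pairs A to D, a description), and pairs A and B were not told apart from each other by this measure. Library D had the lowest share of its reads on listed genes in both groups, 73.4% in control and 73.5% with cytokines. The beta-cell identity of the line was read from 10 marker genes, all listed. Their summed levels were 23932 to 36866 CPM in control and 29094 to 52973 CPM in cytokine libraries. The largest part of the sum was CHGA, at 19221 ± 3843 CPM in control and 25501 ± 7243 CPM with cytokines (SD, n = 4). INS was at 2169 ± 744 CPM in control and 1846 ± 322 CPM with cytokines (SD, n = 4), so the sum says little of INS. Of these 10 genes 5 (50%) were called lower with cytokines, among them MAFA and SLC30A8, and none higher, beside 17.5% and 9.52% of all genes. With TMM scaling 4 were called lower, without NKX2-2, and 2 higher, beside 11.6% and 13.1% of all genes. The 2 were IAPP and NKX6-1 (log2 fold change 0.54, limma, adjusted p = 0.0361). IAPP, at 4102 ± 1844 CPM in control and 7787 ± 3443 CPM with cytokines (SD, n = 4), was also called higher with the pair as a block. The part of these genes in the results below was not tested. Of the marker lists for other cells, values were analysed for 7 of 7 other islet genes (sums of 509 to 2241 CPM in control and 622 to 2078 CPM in cytokine libraries), 2 of 5 acinar, 2 of 3 duct, 2 of 4 fibroblast, 1 of 5 leukocyte and 0 of 3 endothelial genes. In such bulk RNA, fewer cells of a type and less RNA per cell cannot be told apart. The interferon-response genes IRF1 and GBP1 were both called higher, with IRF1 at 11.3 ± 1.05 CPM (SD, n = 4) in control and 755 ± 157 CPM (SD, n = 4) in cytokine libraries.

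With cytokines, 6 of the 59 genes were called higher and 13 lower, and 40 were not called. Calls required a log2 fold change beyond 0.5 in either direction and an adjusted p below 0.05 in limma, fitted on log2(CPM + 0.1) over all 16525 genes, of which 9.52% were called higher and 17.5% lower. Among all genes of biotype lncRNA the shares were 5.37% and 22.8%. Among the 59 genes the shares were 10.2% higher and 22.03% lower in this fit. The groups did not overlap, every library of one lying above every library of the other, for 5 of the 59 genes higher and 18 lower with cytokines, where 10.8% and 21.9% of all genes did so. Where the control and the cytokine libraries were compared within pairs, a fit with the pair as a block called 10 higher and 17 lower, against 11.6% and 23.8% of all genes in that fit. With other fits of the same libraries the counts were 6 and 12 with TMM scaling (all genes 13.1% and 11.6%), 7 and 12 with median-of-ratios scaling (13.3% and 11.4%), 6 and 12 in edgeR (13.1% and 11.4%), 11 and 16 in edgeR with the block (15.9% and 16.1%) and 8 and 12 in DESeq2 (14.3% and 13.0%). The 12 genes called lower with TMM scaling, median-of-ratios scaling, edgeR and DESeq2 were 20.3% of the 59, and the 16 called lower in edgeR with the block were 27.1%. The share lower stood further above that of all genes in these fits than in the first. Of all lncRNA genes 16.0%, 15.8%, 15.3%, 18.1% and 25.8% were called lower in these fits, in the same order. In limma with the block it was 36.6%, above the 28.8% of the 59. The share higher among the 59 was 10.2% with TMM scaling and 18.6% in edgeR with the block, beside 13.1% and 15.9% of all genes. Of all lncRNA genes it was 6.24% and 9.30%.

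By class, none of the 21 SNHG genes was called higher and 5 (23.8%) were called lower, beside 5.37% and 22.8% of all lncRNA genes. The 31 MIR host genes held 5 higher (16.1%) and 6 lower (19.4%), and the 7 listed lncRNAs held 1 higher and 2 lower. The median log2 fold change was -0.42 for SNHG genes, -0.02 for MIR host genes and -0.26 for the listed lncRNAs, beside -0.17 for all genes and -0.42 for all lncRNA genes. With TMM scaling, which raised the log2 fold changes by a median of 0.16, the medians were -0.27, 0.14, -0.10, -0.01 and -0.27 in the same order, so that the sign of the MIR host median depends on the scaling. The difference in calls between the classes was not tested.

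**Figure D1:**
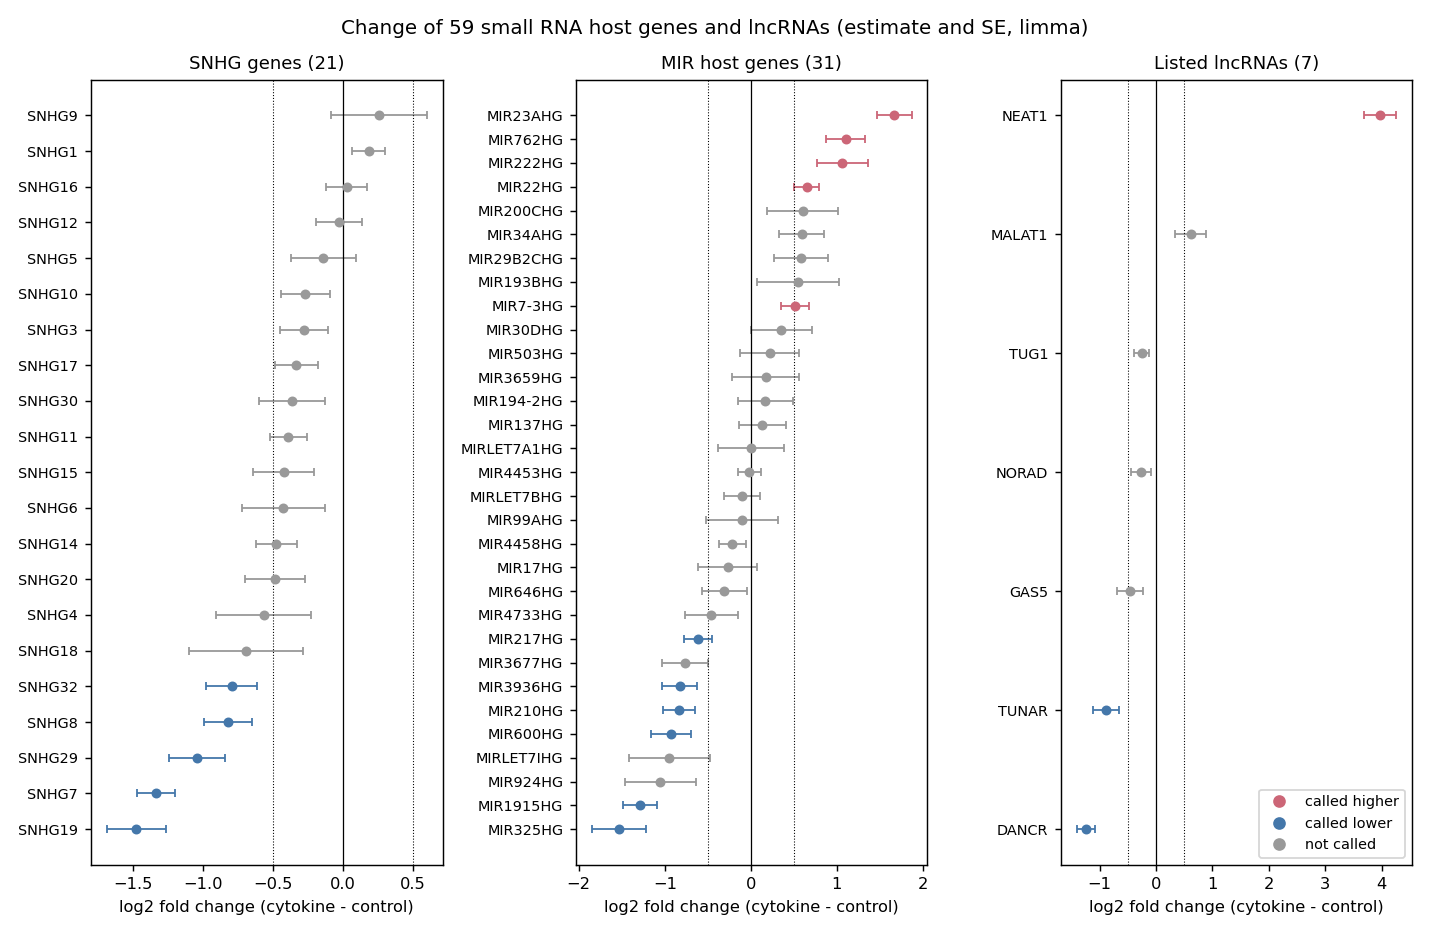
Log2 fold change (cytokine minus control, limma on log2(CPM + 0.1)) of each of the 59 genes, as the estimate (point) and its SE (bar), in 3 panels by class and sorted by size, with separate x axes. Dotted lines mark a log2 fold change of 0.5 in either direction, and colours show genes called higher, called lower or not called. NEAT1 stands at 3.97, and no SNHG gene is called higher.

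The largest change was that of NEAT1 (ENSG00000245532, chr11:65422774-65445540, plus strand), the gene of the scaffold RNA of paraspeckles. It was measured at 3.55, 4.17, 2.69 and 6.47 CPM in control libraries A to D and at 75.6, 67.4, 39.4 and 85.6 CPM in the cytokine libraries of the same pairs. The lowest cytokine library, C, thus lay far above the highest control library, D, and C was also the lowest library in control. The mean rose from 4.22 ± 1.62 to 67.0 ± 19.9 CPM (SD, n = 4 each), 15.9-fold, with a log2 fold change of 3.97 ± 0.29 (SE, limma, adjusted p = 2.87e-06). Within pairs A and B the log2 difference was 4.18 and within pairs C and D it was 3.76. These values count reads on the whole gene and do not tell transcripts of different length apart. The rise therefore cannot be assigned to the form that acts as scaffold, and paraspeckles were not measured.

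MALAT1 (ENSG00000251562, chr11:65497688-65506516, plus strand) begins 52.1 kb beyond the end of NEAT1 on the same strand and is the neighbouring nuclear lncRNA. It was at 112, 136, 83.9 and 229.9 CPM in control and at 211, 199, 146 and 263 CPM in cytokine libraries. Every pair was higher with cytokines, yet control library D lay above 3 of the 4 cytokine libraries, so the groups overlapped. The log2 fold change of 0.61 ± 0.28 (SE) was not called in limma (adjusted p = 0.122) and was called with the pair as a block (limma, adjusted p = 5.68e-05). Without control library D it was 0.88 and was called, and without control library C it was 0.40 and was not.

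The proteins of the bodies that these RNAs occupy were described from lists of paraspeckle and nuclear speckle proteins. None of the 12 paraspeckle proteins and none of the 10 speckle proteins was called, where 9.52% of all genes were called higher and 17.5% lower. Their medians were 0.02 and 0.01 on the log2 scale, beside -0.17 for all genes. At an unadjusted p below 0.05 in limma, 1 paraspeckle protein was higher and 2 were lower, and no speckle protein was in either direction. With the pair as a block in limma or edgeR, and in DESeq2, 1 paraspeckle protein, MATR3 (named after its values were seen), was called higher. The row of MATR3 was low, at 1.59 ± 0.651 CPM in control and 2.62 ± 1.24 CPM with cytokines (SD, n = 4). NONO, a core paraspeckle protein that binds NEAT1, was at 462 ± 27.4 CPM in control and 353 ± 34.5 CPM in cytokine libraries (SD, n = 4). Its fitted change of -0.39 ± 0.12 (log2, SE, limma, adjusted p = 0.0324) lay under the fold threshold although the groups did not overlap. With TMM scaling the change of NONO was -0.24 (limma, adjusted p = 0.22). HNRNPK, another paraspeckle protein, differed by 0.21 ± 0.20 (SE). Of the speckle proteins SRRM2, a scaffold of speckles, differed by -0.08 ± 0.26 (SE, 0.07 with TMM scaling), and SON by 0.29 ± 0.16 (SE). With TMM scaling SON differed by 0.45 (limma, adjusted p = 0.0238), under the fold threshold.

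NORAD (ENSG00000260032, chr20:36045622-36050960, minus strand) had the highest CPM of all 59 genes. Its levels were 429, 393, 670.0 and 514 CPM in control and 391, 366, 473 and 416 CPM in cytokine libraries. Each pair was lower with cytokines, by little in A and B and by more in C and D, and the ranges overlapped. The log2 fold change of -0.26 ± 0.18 (SE, limma, adjusted p = 0.291) was not called, and it was -0.10 with TMM scaling and -0.11 without control library C. KHDRBS1, an RNA-binding protein that associates with NORAD, was not called either and differed by -0.10 ± 0.12 (SE; 0.05 with TMM scaling).

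TUG1 (ENSG00000253352, chr22:30969245-30979395, plus strand) was present at 136, 143, 126 and 127 CPM in control and at 126, 124, 86.7 and 114 CPM in cytokine libraries. The groups lay apart by a narrow margin, with cytokine library C well below the other cytokine libraries. The log2 fold change was -0.26 ± 0.14 (SE) and was not called (limma, adjusted p = 0.181), while a 2-sided exact permutation test of TUG1 alone gave p = 0.0286, the smallest that 4 against 4 libraries allow. With TMM scaling the log2 fold change was -0.10.

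TUNAR (ENSG00000250366, chr14:95876392-95925571, plus strand), a transcript first described in neural differentiation, fell. Control libraries held 42.0, 45.8, 69.1 and 46.5 CPM and cytokine libraries 22.8, 19.6, 40.9 and 28.7 CPM. Library C was the highest of its group in both conditions, and its cytokine value lay just below the lowest control value. Its log2 fold change was -0.89 ± 0.23 (SE, limma, adjusted p = 0.0139), with -1.05 within pairs A and B and -0.72 within pairs C and D.

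**Figure D2:**
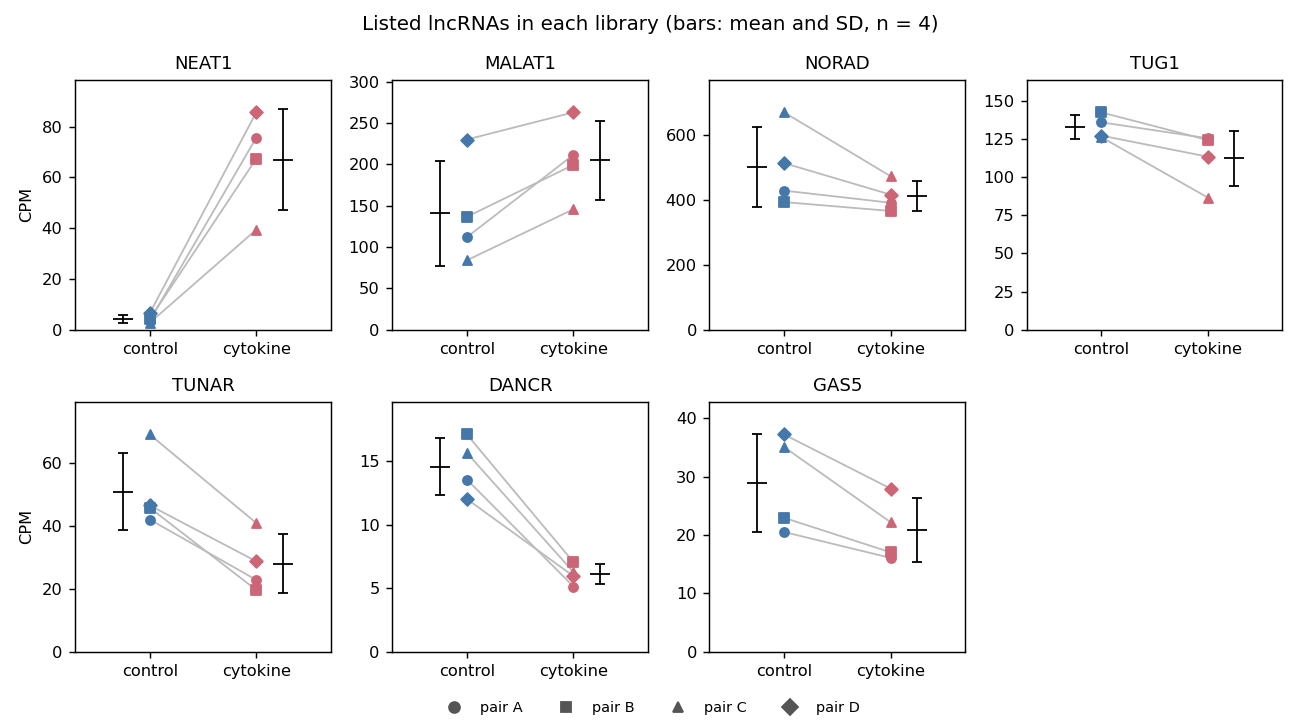
CPM (y axes from 0, linear) of the 7 listed lncRNAs in each of the 4 control and 4 cytokine libraries, with grey lines that join the libraries of a pair and bars that show the mean and SD of each group (n = 4). NEAT1 lies between 2.69 and 6.47 CPM in control and between 39.4 and 85.6 CPM in cytokine libraries, and DANCR and TUNAR are lower in every cytokine library than in any control library.

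Of the 23 hosts of snoRNAs among the 59 genes (the SNHG genes, GAS5 and DANCR), 6 were called lower (26.1%) and none higher, beside 22.8% and 5.37% of all lncRNA genes and 17.5% and 9.52% of all genes. None was higher at an unadjusted p below 0.05 in limma, and none was called higher in limma with the block, in edgeR with or without the block, or in DESeq2 without it. RefSeq places at least 1 snoRNA gene within the span of 19 of the 21 SNHG genes, of GAS5 and of DANCR. The fitted change was below 0 in 20 of the 23 (87.0%), where 75.9% of all lncRNA genes and 63.5% of all genes lay below 0. With TMM scaling it was below 0 in 18 of the 23 (78.3%), where SNHG12 and SNHG5 turned. The shares were then 68.1% of all lncRNA genes and 50.9% of all genes. In all 4 pairs 17 (73.9%) were lower with cytokines, where 48.5% of all lncRNA genes and 43.6% of all genes were. Their median was -0.43 on the log2 scale, beside -0.42 for all lncRNA genes.

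SNHG29 (ENSG00000175061, chr17:16438822-16478678, plus strand), host of SNORD49A, SNORD49B and SNORD65, had the highest CPM of the SNHG genes in control cells. It was at 101, 106.8, 166 and 145 CPM in control and at 50.8, 50.7, 81.5 and 68.5 CPM in cytokine libraries. Pairs C and D were higher than A and B in both conditions, and the fall was of like size in each pair, with log2 differences of -1.03 within A and B and -1.06 within C and D. The mean was 129.8 ± 31.3 CPM in control and 62.9 ± 15.0 CPM with cytokines (SD, n = 4), which gave -1.04 ± 0.20 on the log2 scale (SE, limma, adjusted p = 0.00304).

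SNHG7 (ENSG00000233016, chr9:136721366-136728184, minus strand), host of SNORA17A and SNORA17B, had the smallest adjusted p of the snoRNA hosts. Its levels were 42.3, 45.4, 55.3 and 49.2 CPM in control and 17.3, 16.6, 22.04 and 20.2 CPM in cytokine libraries. The cytokine mean was 39.6% of the control mean, and the groups were far apart. On the log2 scale the change was -1.33 ± 0.14 (SE, limma, adjusted p = 4.17e-05).

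SNHG19 (ENSG00000260260, chr16:2154797-2155358, minus strand), a short host of SNORD60, had the largest fitted fall of the class at a low level. Between 57 and 249 reads per library stood behind its values of 4.15, 4.80, 4.96 and 3.36 CPM in control and 1.45, 1.22, 1.43 and 1.85 CPM in cytokine libraries. Every cytokine library was lower than the lowest control library, and the log2 fold change was -1.48 ± 0.21 (SE, limma, adjusted p = 0.00043).

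DANCR (ENSG00000226950, chr4:52712404-52720351, plus strand), which holds SNORA26 and was named for its part in keeping progenitor cells undifferentiated, was at 13.5, 17.1, 15.6 and 12.0 CPM in control and at 5.13, 7.05, 6.26 and 5.95 CPM in cytokine libraries. All 4 cytokine values were below the control range. The mean was 14.6 ± 2.24 CPM in control and 6.10 ± 0.793 CPM with cytokines (SD, n = 4), and the log2 fold change was -1.24 ± 0.16 (SE, limma, adjusted p = 0.000262).

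SNHG8 (chr4:118278709-118279823, plus strand), host of SNORA24, fell from 20.6, 25.2, 30.9 and 29.2 CPM in control to 13.5, 12.2, 18.4 and 15.6 CPM, a log2 fold change of -0.82 ± 0.17 (SE, limma, adjusted p = 0.00461). SNHG32 (chr6:31834608-31839766, plus strand), which lies in the major histocompatibility region and hosts SNORD48 and SNORD52, was at 13.0, 11.1, 16.4 and 15.2 CPM in control and at 6.37, 7.33, 9.72 and 8.52 CPM with cytokines (log2 fold change -0.80 ± 0.18, SE, limma, adjusted p = 0.00719). In both genes the cytokine libraries of pairs C and D lay above those of A and B, and no cytokine library reached the control range. SNHG32 shares 418 exonic bases on its own strand with AL671762.1. SNHG7 and SNHG29 share 1094 and 452 bases with genes on the opposite strand. How reads on these shared bases were assigned was not tested, so the values of these genes may be affected.

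GAS5 (ENSG00000234741, chr1:173863900-173868882, minus strand), whose introns hold 11 snoRNA genes and whose exons accumulate when growth stops, was not called. Its values were 20.5, 23.0, 35.1 and 37.2 CPM in control and 16.1, 17.0, 22.2 and 28.0 CPM in cytokine libraries. Each pair was lower with cytokines, but the spread between pairs was larger than the difference within them and the groups overlapped. The log2 fold change was -0.46 ± 0.23 (SE, limma, adjusted p = 0.16). With the pair as a block the adjusted p was 0.000282, and the change still lay under the fold threshold of 0.5.

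SNHG14 (chr15:24978583-25419462, plus strand), the long transcript of the imprinted Prader-Willi region with 84 snoRNA genes in its span, was at 122, 129, 122 and 131 CPM in control and at 99.0, 97.9, 66.6 and 104 CPM in cytokine libraries. It shares 2426 exonic bases on its own strand with SNRPN and other genes, so its values may be affected too. The groups were apart, and the adjusted p was 0.0296 (limma), but the log2 fold change of -0.48 ± 0.15 (SE) lay just inside the fold threshold. Without cytokine library A, B or D it passed, at -0.52, -0.51 and -0.54, and without cytokine library C it was -0.33. With TMM scaling it was -0.32 (limma, adjusted p = 0.137), in edgeR -0.30 (adjusted p = 0.157) and in DESeq2 -0.30 (adjusted p = 0.15). SNHG11 (chr20:38446578-38450921, plus strand), host of SNORA60 and SNORA71E, differed by -0.39 ± 0.13 (SE, limma, adjusted p = 0.0449) with groups that did not overlap. For SNHG11 the value was -0.23 with TMM scaling (limma, adjusted p = 0.178), and the adjusted p was above 0.05 in 7 of the 8 fits that left out 1 library. SNHG6, host of SNORD87, was among the SNHG genes of highest level per kilobase and ranged from 11.4 to 26.4 CPM in control and from 9.38 to 18.7 CPM in cytokine libraries, a log2 fold change of -0.43 ± 0.30 (SE) that was not called.

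Among the other SNHG genes the fitted changes above 0 were those of SNHG9 (0.26 ± 0.34, SE), SNHG1 (0.19 ± 0.12, SE) and SNHG16 (0.03 ± 0.15, SE). SNHG1, with 9 snoRNA genes inside its span, was higher with cytokines in all 4 pairs and was not called (limma, adjusted p = 0.262). Its log2 fold change was 0.34 both in edgeR with the block (adjusted p = 0.00284) and in DESeq2 (adjusted p = 0.0499), under the fold threshold. SNHG18 was called lower with the pair as a block (log2 fold change -0.69, limma, adjusted p = 0.000959) and not without it (adjusted p = 0.223), and its control libraries spread from 2.88 to 8.64 CPM.

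**Figure D3:**
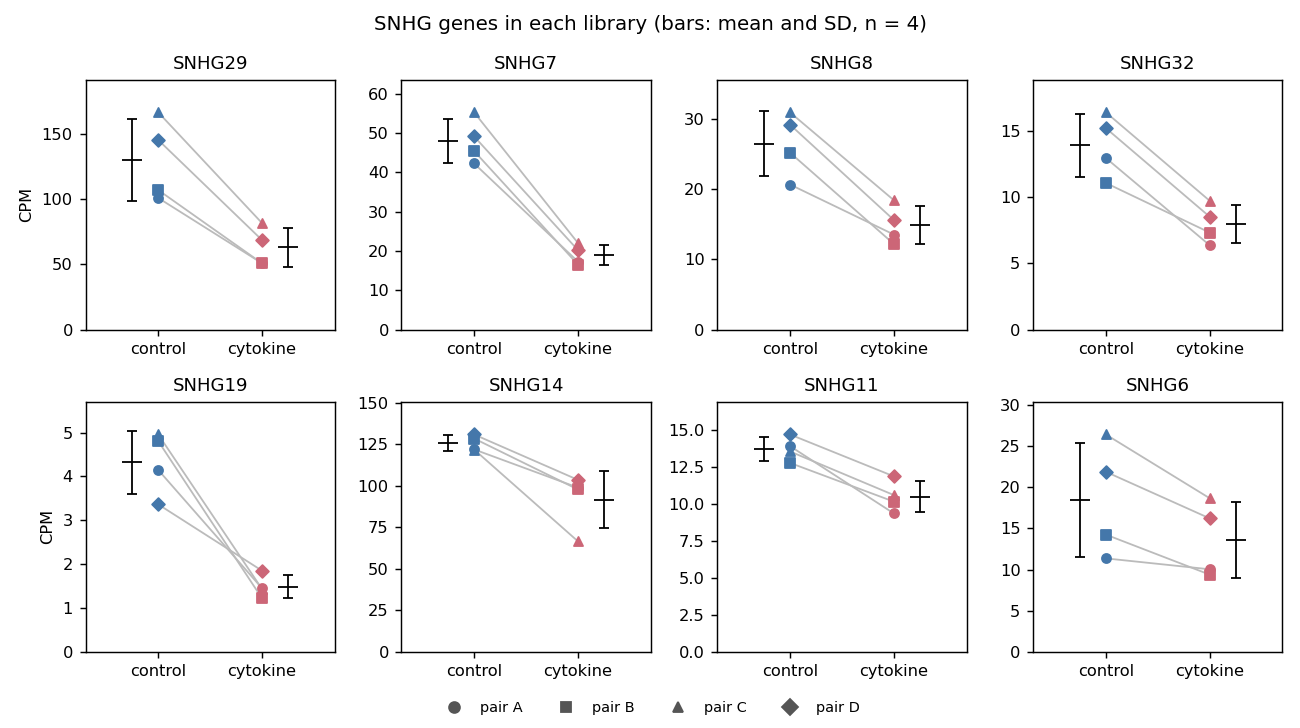
CPM (y axes from 0, linear) of 8 SNHG genes in each of the 4 control and 4 cytokine libraries, with grey lines that join the libraries of a pair and bars that show the mean and SD of each group (n = 4). SNHG29, SNHG7, SNHG8, SNHG32 and SNHG19 were called lower, and SNHG14, SNHG11 and SNHG6 were not called.

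Many other snoRNAs lie in introns of protein-coding genes, often those of ribosomal proteins and translation factors. Of 39 protein-coding hosts, 12 (30.8%) were called lower and 2 (5.13%) higher, beside 17.5% and 9.52% of all genes, with a median of -0.35 on the log2 scale and summed levels of 11987 to 18442 CPM in control and 8827 to 12094 CPM in cytokine libraries. With TMM scaling 9 (23.1%) were called lower and 3 (7.69%) higher, beside 11.6% and 13.1% of all genes. RPL3, a protein of the large ribosomal subunit, fell from 1489 ± 489 to 545 ± 122 CPM (SD, n = 4 each, log2 fold change -1.42 ± 0.25, SE, limma, adjusted p = 0.00156), and RPL5 from 385 ± 69.4 to 182 ± 25.4 CPM (-1.07 ± 0.16, SE). The hosts called higher were HSPA8, a heat shock cognate chaperone, and PRPF39, a splicing factor, at 0.58 ± 0.14 and 0.59 ± 0.17 (SE), named after their values were seen.

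None of the 19 proteins that assemble or form snoRNA particles was called in limma, edgeR or DESeq2. Their median was -0.07, beside -0.17 for all genes. Of all genes 9.52% were called higher and 17.5% lower in limma. At an unadjusted p below 0.05 in limma 1 of the 19 was lower and none higher. NOP56, a core protein of box C/D particles and itself a snoRNA host, differed by 0.26 ± 0.18 (SE), and TCOF1, a nucleolar factor of ribosomal RNA synthesis, by -0.20 ± 0.11 (SE). Among 16 genes of nonsense-mediated decay, 1 (6.25%) was called higher and none lower in limma, beside 9.52% and 17.5% of all genes. At an unadjusted p below 0.05 in limma, 2 were higher and 2 lower. The call was that of SMG1, the kinase that phosphorylates UPF1, which rose from 42.6 ± 8.94 to 92.1 ± 20.3 CPM (SD, n = 4 each, log2 fold change 1.11 ± 0.19, SE, limma, adjusted p = 0.00156).

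**Figure D4:**
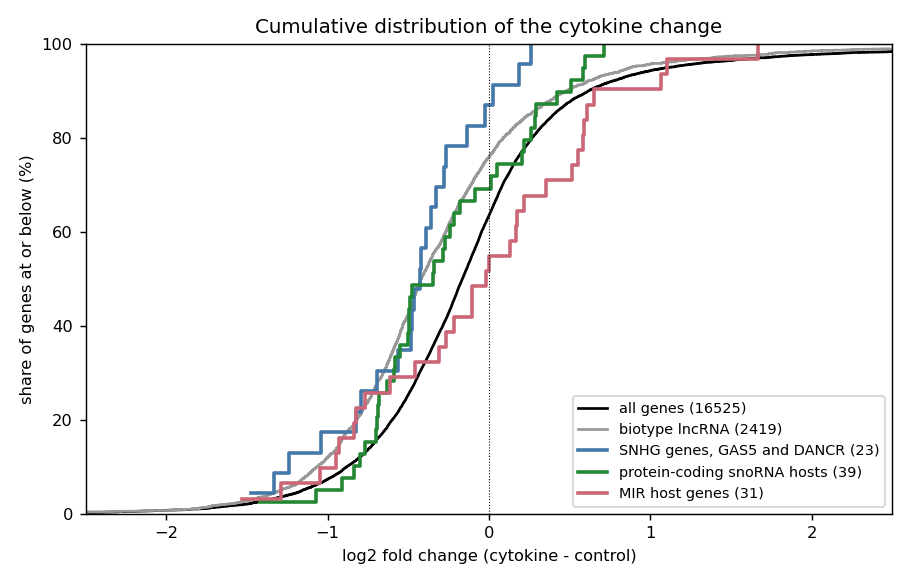
Cumulative share of genes (y axis, %) at or below each log2 fold change (x axis, cytokine minus control, limma on log2(CPM + 0.1)) for all genes, lncRNA genes, the 23 snoRNA hosts among the SNHG and listed genes, 39 protein-coding snoRNA hosts and the 31 MIR host genes. The medians are -0.17, -0.42, -0.43, -0.35 and -0.02.

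The MIR host genes moved in both directions. MIR23AHG (ENSG00000267519, chr19:13823880-13842928, minus strand), which carries miR-23a, miR-27a and miR-24-2, had the largest rise. It was at 0.813, 0.868, 0.975 and 0.997 CPM in control and at 3.19, 2.71, 2.94 and 3.68 CPM in cytokine libraries, from 38 to 183 reads per library. The libraries of each group lay close together and far from those of the other group. The mean rose 3.43-fold and the log2 fold change was 1.67 ± 0.20 (SE, limma, adjusted p = 0.000133). On the opposite strand 2286 of its exonic bases are shared with ZSWIM4.

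MIR762HG (chr16:30875222-30895220, plus strand), host of miR-762, was at 2.31, 1.48, 2.13 and 1.43 CPM in control and at 3.70, 3.18, 4.89 and 4.34 CPM with cytokines (log2 fold change 1.10 ± 0.23, SE, limma, adjusted p = 0.00442). Of its exonic bases 1023 lie opposite BCL7C and a second gene. MIR222HG (ENSG00000270069, chrX:45745211-45770274, minus strand), host of miR-221 and miR-222, rose from 0.748, 1.25, 1.49 and 1.60 CPM to 2.49, 3.20, 1.75 and 3.64 CPM (log2 fold change 1.06 ± 0.30, SE, limma, adjusted p = 0.0198). Its cytokine library C exceeded the highest control library only slightly, and the log2 difference was 1.45 within pairs A and B and 0.68 within pairs C and D. Without cytokine library B or without cytokine library D it was no longer called, at 0.98 and 0.92.

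MIR22HG (chr17:1711493-1717174, minus strand), host of miR-22, rose in each pair by a like amount, from 7.57, 7.01, 8.28 and 9.07 CPM in control to 12.3, 10.6, 13.6 and 13.7 CPM (log2 fold change 0.65 ± 0.15, SE, limma, adjusted p = 0.0077). MIR7-3HG (ENSG00000176840, chr19:4769140-4772533, plus strand), host of miR-7-3, a miRNA known from endocrine cells, had the highest level of the class. It was at 123, 124, 104 and 88.2 CPM in control and at 182, 180.5, 147 and 122 CPM with cytokines. Every pair was higher with cytokines, but cytokine library D lay below control libraries A and B, so the groups overlapped. The log2 fold change of 0.52 ± 0.17 (SE) passed narrowly (limma, adjusted p = 0.0353), and a 2-sided exact permutation test gave p = 0.0857. The call was lost without control library C or D or cytokine library A or B, at 0.49, 0.42, 0.44 and 0.45, and without the intensity trend (limma, adjusted p = 0.059). It was kept with TMM scaling (0.67, limma, adjusted p = 0.0222), with the pair as a block (limma, adjusted p = 2.77e-06) and in DESeq2 (0.68, adjusted p = 0.00598).

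Falls in the class were led by MIR325HG (ENSG00000280870, chrX:76657798-77014532, minus strand), host of miR-325 and miR-384. It was at 2.52, 1.97, 1.31 and 1.39 CPM in control and at 0.894, 0.342, 0.463 and 0.563 CPM with cytokines, from 16 to 118 reads per library. Pairs A and B had the higher control values, and no cytokine library reached the control range. Its log2 fold change was -1.53 ± 0.32 (SE, limma, adjusted p = 0.00434).

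MIR1915HG (chr10:21492658-21497262, minus strand), host of miR-1915, fell to 40.0% of its control level, from 6.80, 5.44, 7.86 and 5.83 CPM to 2.47, 2.56, 3.22 and 2.11 CPM (log2 fold change -1.29 ± 0.20, SE, limma, adjusted p = 0.000643). MIR600HG (chr9:123109494-123115477, minus strand) was at 14.4, 15.3, 9.38 and 14.2 CPM in control and at 8.99, 7.92, 4.39 and 6.93 CPM with cytokines (-0.93 ± 0.24, SE, limma, adjusted p = 0.0131), with library C the lowest in both groups. It shares 254 exonic bases on its own strand with STRBP.

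MIR210HG (chr11:565660-568457, minus strand), host of miR-210, the miRNA best known for its rise in low oxygen, was at 4.60, 4.28, 4.86 and 4.32 CPM in control and at 2.94, 2.41, 1.93 and 2.73 CPM with cytokines (log2 fold change -0.84 ± 0.19, SE, limma, adjusted p = 0.00621). MIR3936HG (chr5:132311285-132369916, minus strand) fell from 3.66, 3.62, 3.84 and 5.38 CPM to 2.09, 2.43, 1.91 and 2.63 CPM (-0.83 ± 0.20, SE, limma, adjusted p = 0.0105). MIR217HG (chr2:55963191-56047326, minus strand), host of miR-216a, miR-216b and miR-217, which are enriched in pancreas, fell from 5.35, 5.33, 6.55 and 5.47 CPM to 3.22, 4.08, 3.42 and 4.00 CPM. The groups of all 3 genes were apart. The call of MIR217HG (log2 fold change -0.61 ± 0.17, SE, limma, adjusted p = 0.0171) was lost with TMM scaling, at -0.46, and without cytokine library A, at -0.55. Beside this fall stands that of the acinar marker CPA1, a pancreatic carboxypeptidase, from 8.41 ± 0.693 to 4.04 ± 0.924 CPM (SD, n = 4 each, log2 fold change -1.06 ± 0.19, SE, limma, adjusted p = 0.00201). The other acinar marker of the table, CEL, was at 2.70 ± 1.04 and 2.03 ± 0.424 CPM and was not called. The 2 summed to 9.58 to 12.4 CPM in control and 4.49 to 6.71 CPM in cytokine libraries, and the part of acinar RNA in the change of MIR217HG was not tested.

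**Figure D5:**
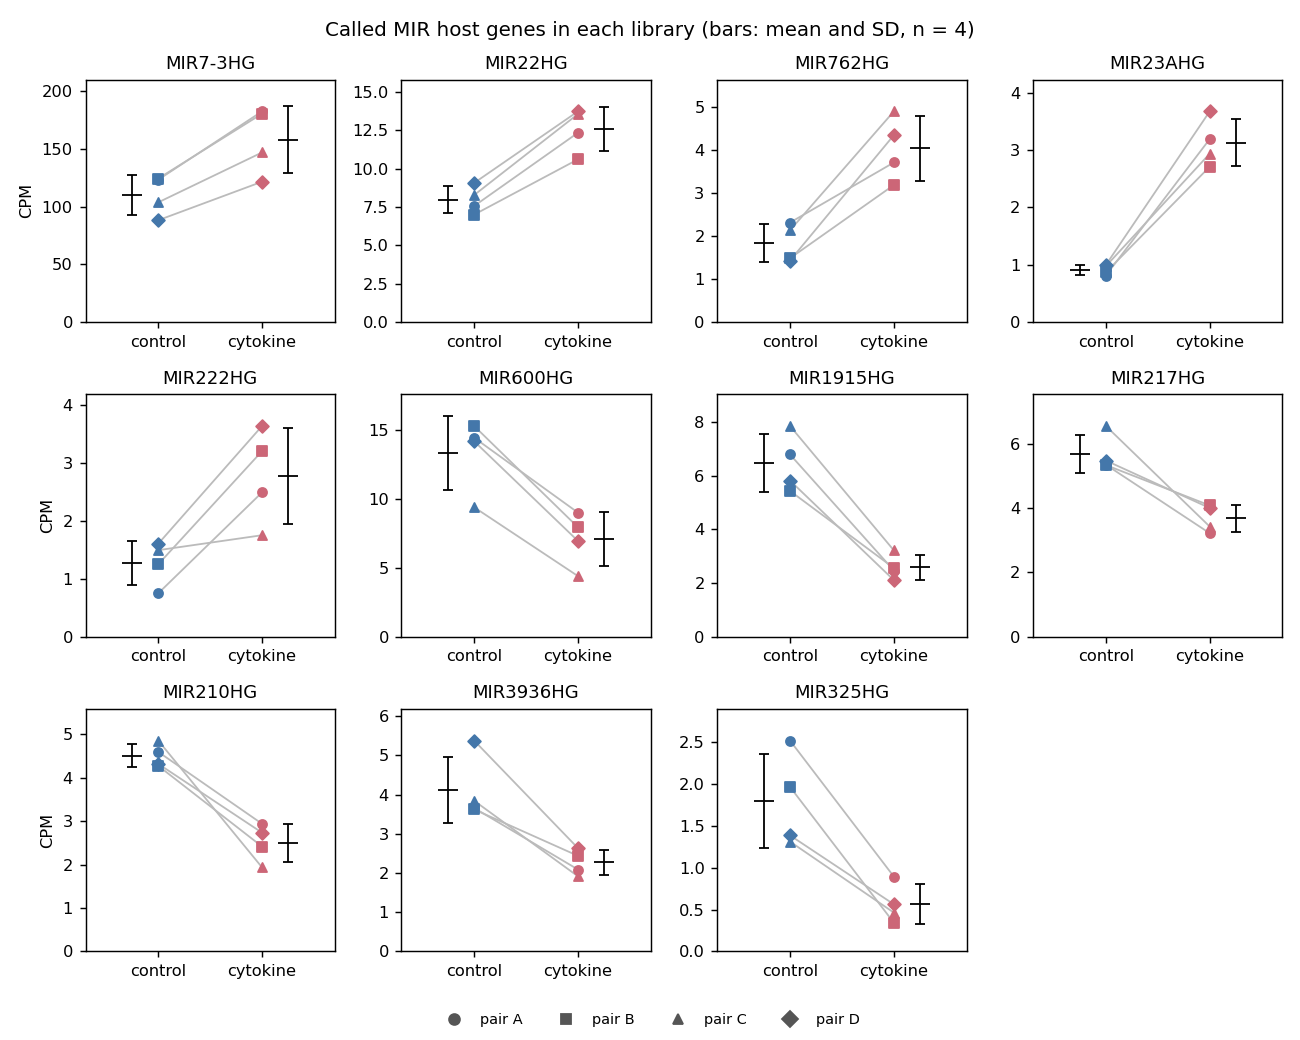
CPM (y axes from 0, linear) of the 11 called MIR host genes in each of the 4 control and 4 cytokine libraries, with grey lines that join the libraries of a pair and bars that show the mean and SD of each group (n = 4). MIR7-3HG, MIR22HG, MIR762HG, MIR23AHG and MIR222HG were called higher and the other 6 genes lower, and of the 11 only MIR7-3HG has groups that overlap.

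The other 20 MIR host genes were not called. The smallest adjusted p among them was that of MIR3677HG, host of miR-3677 and miR-940, at 1.35, 1.61, 1.33 and 1.66 CPM in control and 1.13, 0.961, 0.483 and 0.884 CPM with cytokines (log2 fold change -0.77 ± 0.27, SE, limma, adjusted p = 0.054). It was followed by MIR924HG, whose control libraries were high in pairs C and D and low in A and B (-1.05 ± 0.42, SE, limma, adjusted p = 0.0785). With the pair as a block both were called lower in limma (adjusted p = 0.0118 and 0.000839), as was MIRLET7IHG, while MIR29B2CHG, MIR34AHG and MIR200CHG were called higher (adjusted p = 0.000374, 0.00519 and 0.0481). MIR4453HG, among the highest of the class per kilobase, was at 13.2 ± 1.64 CPM in control and 13.0 ± 0.720 CPM with cytokines (SD, n = 4), and the sign of its log2 fold change of -0.02 ± 0.14 (SE) turned with TMM scaling (0.14).

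The seed GAGGUAG of the let-7 family was shared by 7 miRNAs in 5 of the host genes, the widest sharing among the hosts. They are shown by the miRNA let-7i-5p of MIRLET7IHG (chr12:62603691-62603712, plus strand) and miR-4458 of MIR4458HG (chr5:8460933-8460951, plus strand), which differ outside the seed.
let-7i-5p: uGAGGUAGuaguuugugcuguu
miR-4458: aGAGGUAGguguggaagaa
None of the 5 hosts was called in limma without the block, and differences between them were not tested. MIRLET7IHG had a log2 fold change of -0.95 ± 0.47 (SE, limma, adjusted p = 0.151, and 0.000394 with the pair as a block), at 3.78, 4.83, 1.49 and 4.20 CPM in control and 2.41, 2.09, 0.584 and 2.43 CPM with cytokines. The values were -0.22 ± 0.15 (SE) for MIR4458HG, -0.11 ± 0.42 for MIR99AHG, -0.10 ± 0.21 for MIRLET7BHG and 0.00 ± 0.38 for MIRLET7A1HG, none of them called in limma with or without the block. With TMM scaling the sign turned for MIR99AHG (0.01) and MIRLET7BHG (0.05).

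Of 17 genes that process miRNAs or act with them, 1 was called higher and 1 lower (5.88% each). Of all genes 9.52% were called higher and 17.5% lower, so neither share exceeded that of all genes. AGO2, the Argonaute protein that cuts paired targets, rose from 28.7 ± 2.92 to 58.0 ± 16.5 CPM (SD, n = 4 each, log2 fold change 0.98 ± 0.19, SE, limma, adjusted p = 0.00282). DGCR8, the partner of Drosha, fell from 45.0 ± 5.19 to 30.9 ± 4.21 CPM (-0.54 ± 0.13, SE, limma, adjusted p = 0.0108), a call that was lost with TMM scaling, at -0.39. The median of the list was -0.10, beside -0.17 for all genes.

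Levels were compared between genes as CPM per kilobase of exon (GENCODE 29). How well each transcript, MALAT1 and NEAT1 among them, is captured in messenger RNA libraries was not measured. The order below is therefore one of values in these libraries and not of amounts in the cell. In control cells the order was led by MIR7-3HG at 97.7 ± 15.4 and NORAD at 93.9 ± 23.1 CPM per kilobase (SD, n = 4), which did not differ beyond their spread. SNHG29 at 34.5 ± 8.32 and SNHG8 at 28.7 ± 4.95 followed, again within their spread, and then MALAT1 at 15.9 ± 7.18 and SNHG6 at 14.8 ± 5.54. With cytokines MIR7-3HG was at 140 ± 26.0 and NORAD at 77.1 ± 8.58, a gap wider than the spread of either, and MALAT1 at 23.2 ± 5.45 stood above SNHG29 at 16.7 ± 3.98 and SNHG8 at 16.2 ± 2.94. At the lower end 5 of the 59 genes passed 0.5 CPM in fewer than 4 of these 8 libraries, and 49 did so in all 8.

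No gene of the 59 was called for a different response in the sets of pairs that share an ending of the column names (A and B, C and D). In limma with an interaction of treatment and set, none had an unadjusted p below 0.05 and the smallest adjusted p was 0.999, where 5 of 16525 genes (0.0303%) were called. The change had the same sign in both sets for 52 of the 59 genes, and the share over all genes was not computed. All 19 called genes had the same sign in both. They were called from these same libraries, so their agreement largely follows from the calls and is no separate support. With 2 pairs in each set a difference had to be large to be seen.

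Some of these genes lie side by side. SNHG11 and SNHG17 are 11.2 kb apart on chromosome 20, SNHG3 and SNHG12 are 67.6 kb apart on chromosome 1, and SNHG19 lies 113 kb from MIR3677HG and 189 kb from SNHG9 on chromosome 16. Some neighbours had like log2 fold changes, as SNHG11 at -0.39 and SNHG17 at -0.33, and others unlike ones, as SNHG19 at -1.48 and SNHG9 at 0.26 or NEAT1 and MALAT1 at 3.97 and 0.61.

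Promoters from 250 bases before to 50 after the start were searched on both strands for letters that interferon and NF-κB factors are known to bind. The core of the interferon-stimulated response element was found in none of 20 snoRNA hosts and in 3 of 30 MIR host genes, against 3.65% of all promoters of this length. The gamma-activated motif TTCNNNGAA was found in 2 of 20 and 2 of 30, against 7.88%, the kappa-B consensus in 4 of 20 and 3 of 30, against 10.8%, and the TATA box letters TATAAA in 4 of 20 and 3 of 30, against 12.0%. TATAAA began 30 bases before the start in both SNHG19 and SNHG7. The hosts with the interferon core were MIR222HG, MIR34AHG and MIR924HG, with log2 fold changes of 1.06, 0.59 and -1.05, of which only the first was called. The hosts with TTCNNNGAA were DANCR, SNHG3, MIR7-3HG and MIR4458HG, with log2 fold changes of -1.24, -0.28, 0.52 and -0.22, of which DANCR was called lower and MIR7-3HG higher. The promoter of MIR222HG (chrX:45770218-45770517, minus strand, RefSeq, GRCh38.p14) is shown as that of the 1 called gene with the core; its capitals mark a kappa-B match that begins 235 bases before the start and the core, on the opposite strand, 190 bases before it.
MIR222HG: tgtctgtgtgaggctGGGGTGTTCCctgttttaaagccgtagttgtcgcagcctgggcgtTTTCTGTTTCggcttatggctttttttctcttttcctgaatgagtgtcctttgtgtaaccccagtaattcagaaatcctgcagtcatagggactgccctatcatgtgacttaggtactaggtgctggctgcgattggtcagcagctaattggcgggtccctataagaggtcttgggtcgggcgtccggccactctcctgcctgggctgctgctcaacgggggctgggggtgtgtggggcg
A match gives the letters only, and binding of a factor was not measured.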

How the data were processed

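RNA of 4 control and 4 cytokine-treated samples was sequenced by the authors with a strand-specific messenger RNA kit. Per the methods and the submitters' processing notes, reads were aligned with TopHat 2.1.1 to GRCh38 and counted with HTSeq 0.9.1 on Ensembl genes at default settings, and a gene had to pass 0.5 CPM in 4 or more samples. The authors deposited CPM values, not scaled by gene length. Another 4 columns of values were not used. Whole reads were recovered from the CPM within 0.01 read. The genes, lists and tests were chosen with earlier results of these data known, so no pattern here is independent support. The planned rule asked for the lncRNA biotype in all rows. TUG1 and TUNAR were kept by name.

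Genes were tested with limma 3.58.1 (R 4.3.3) with an intensity trend on log2(CPM + 0.1), with all 8 libraries, Benjamini-Hochberg adjustment over 16525 genes and the thresholds of the study. Fold changes on this scale understate those of low genes. Alternatives were TMM and median-of-ratios scaling, other pseudocounts (0.5 and 1), a filter at a mean of 1 CPM, no trend, edgeR 4.0.16 and DESeq2 1.42.0 run on whole reads, each library left out, and a replicate block. Columns carry no replicate number, and the block is the shared first part of their names: deviations from the group mean correlated by 0.57, 0.59, 0.80 and 0.74 in the 4 pairs, all above 0.1. No label says that libraries came from separate cultures, so p-values measure the spread between these libraries, which may be technical. The fits were tested on simulated data with 200 changed genes. Named were the 7 listed lncRNAs, called genes, the 3 highest per kilobase and the 2 uncalled genes of smallest adjusted p in each class, and 2 genes per companion list, of which some results are not reported here. The promoter starts of called snoRNA hosts and the promoter of MIR222HG were added after their matches were seen. CHGA, INS, IAPP, NKX6-1, NKX2-2, CPA1 and CEL were named after their values were seen. All 59 genes had a GENCODE 29 entry, and 54 had a RefSeq promoter. Python 3.11.15, pandas 2.3.3, numpy 2.4.6, scipy 1.17.1 and matplotlib 3.10.9 were used.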

Additional observations from a re-analysis of the deposited data

Results flagged for a closer look

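In 58 groups of 4 libraries (29 named genes in 2 conditions), 5 groups had a library whose gap to the nearest of the others exceeded Dixon's 95% critical share of the range, where chance gives about 1 in 20. SNHG14 was at 66.6 CPM in cytokine library C, below 97.9 to 104 CPM in the other cytokine libraries. TUNAR was at 69.1 CPM in control library C, above 42.0 to 46.5 CPM, and MIR217HG was at 6.55 CPM in the same library, above 5.33 to 5.47 CPM. MIR3936HG was at 5.38 CPM in control library D, above 3.62 to 3.84 CPM. MIR4453HG was at 11.9 CPM in cytokine library B, below 13.3 to 13.4 CPM. The calls of TUNAR and MIR3936HG were kept when any single library was left out, and that of MIR217HG was lost without cytokine library A (-0.55, limma, adjusted p = 0.0563).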

How the results depend on the processing

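The count of genes called higher moved most with the pair as a replicate block, from 6 to 10 in limma and 11 in edgeR with TMM, and included the 6 genes of the main fit in both. The additions were MIR29B2CHG, MIR34AHG, MALAT1 and MIR200CHG in limma, with MIR30DHG in edgeR. The count lower stayed between 12 and 17 in all fits of all libraries. TMM, median-of-ratios scaling, edgeR and DESeq2 without the block gave 6, 7, 6 and 8 higher and 12 lower, each without MIR217HG. With 1 library left out at a time the counts were 4 to 7 higher, 13 to 14 lower and 0 with a difference between the sets of pairs. The 57 genes of biotype lncRNA alone gave 6 and 12, a choice added after seeing the data. Signs near 0 changed: MIR4453HG (-0.02) became 0.14 with TMM, median-of-ratios, edgeR, edgeR with the block and DESeq2, and 0.0371, 0.0285 and 0.0221 without control library C, control library D and cytokine library B (range without 1 library -0.0728 to 0.0371). SRRM2 (-0.08) became 0.0747, 0.0806, 0.0571, 0.0746 and 0.0611 in the same 5 fits and 0.0178, 0.0260 and 0.119 without control library A, control library B and cytokine library C (range -0.274 to 0.119), and KHDRBS1 (-0.10) became 0.0529, 0.0588, 0.0551, 0.0529 and 0.0621 in those fits. The causes were not tested. Over the named members and all alternatives, 487 values kept direction and side of the threshold, 14 passed it, 13 lost it and 8 changed sign. Genes near 1 CPM rest on few reads, for which small changes were not detectable at this depth.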
